A study of Mus musculus with 9 samples.

Results

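The 10 genes described here are members of the Notch pathway: the receptors Notch1, Notch2 and Notch3, the ligands Jag1, Jag2, Dll1 and Dll3, and the target genes Hes1, Hes5 and Hey1. They were chosen by name from the 21909 gene symbols measured, and all 10 were found with 1 row each in every library. Messenger RNA of 3 sorted populations was sequenced, with 1 library each, from the olfactory epithelium (main) of mice at an age of 4 weeks. HBC (horizontal basal cells, the reserve stem cell layer) were sorted with a phycoerythrin-coupled antibody to CD54, the protein of Icam1. GBC (globose basal cells and their early neuronal progeny) carried a Neurog1-EGFP reporter, and mOSN (mature olfactory sensory neurons) carried an OMP-ires-EGFP reporter, so each of these sorts takes the cells in which that reporter is fluorescent. The sources used here do not state strain, sex or the number of animals pooled. ScriptSeq was used for the HBC library and the Illumina mRNA kit for the other two, so in every comparison with HBC the kit and the population cannot be told apart. With 1 library per population there was no replicate error and no test, and every interval below is the one deposited with the value, which covers counting error only.

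Notch signalling passes between touching cells. A Jagged or Delta-like ligand on one cell binds a Notch receptor on its neighbour, the receptor is cleaved by an ADAM protease and then by the gamma-secretase complex, and the released intracellular domain joins the DNA-binding protein Rbpj to switch on Hes and Hey genes. Hes and Hey proteins are transcriptional repressors, and Hes1 and Hes5 are known to repress proneural genes such as Neurog1. In the olfactory epithelium the pathway is known for its part in the choice between neuronal and supporting cell fates and in the quiescence of horizontal basal cells.

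Because Rbpj is the DNA-binding factor of the pathway, promoter windows (250 bases before to 50 after the annotated start) from RefSeq on build GRCm38.p6 were searched for the Rbpj word GTGGGAA on both strands. Windows were matched by symbol for 8 of the 10 members (9 windows), and the members without an entry were Hes1 and Hey1. The word was found in the window of 1 member, Hes5, and 6.38% of all 32851 windows hold it. Hes5 holds it at 2 places, starting 226 bases upstream of the start on the reverse strand and 83 bases upstream on the forward strand, and 0.256% of all windows hold it at 2 or more places. The related gene Hey2 of the pathway lists also holds it at 2 places, 207 bases upstream on the reverse strand and 4 bases upstream on the forward strand. Among the other pathway genes Lfng, a fringe glycosyltransferase described further on, is shown beside Hes5. It was picked because its GTGGGAA shares 3 bases with an E-box, CACGTG, an arrangement found in 0.107% of all windows. Of the 67 windows of the pathway list genes, 6 held GTGGGAA. A window of Psen2 also held both words, without overlap. A match describes the letters only. The 250 bases upstream of Hes5 (GRCm38.p6, chr4:154960673-154960922, forward strand) and of Lfng (GRCm38.p6, chr5:140607091-140607340, forward strand) are printed 5′ to 3′, with GTGGGAA, its reverse complement and CACGTG in capitals.
Hes5: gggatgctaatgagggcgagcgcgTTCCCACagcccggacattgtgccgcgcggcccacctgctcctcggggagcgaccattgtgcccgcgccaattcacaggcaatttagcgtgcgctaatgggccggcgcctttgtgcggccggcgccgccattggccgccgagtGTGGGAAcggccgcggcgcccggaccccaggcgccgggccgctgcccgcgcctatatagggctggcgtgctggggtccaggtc
Lfng: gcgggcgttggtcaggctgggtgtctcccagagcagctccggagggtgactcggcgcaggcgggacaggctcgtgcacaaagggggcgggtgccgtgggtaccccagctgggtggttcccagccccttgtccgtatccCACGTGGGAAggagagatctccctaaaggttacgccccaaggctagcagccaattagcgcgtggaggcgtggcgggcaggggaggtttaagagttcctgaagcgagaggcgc

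Levels are in FPKM, a fragment count adjusted for transcript length and library size, as the authors deposited them. At 1 FPKM or more there were 8 members in HBC, 6 in GBC and 4 in mOSN, where 52.0%, 52.0% and 52.7% of all genes reached that level. At 5 FPKM or more stood 7 members for HBC, 2 for GBC and 2 for mOSN, beside shares of all genes of 28.8% for HBC, 32.1% for GBC and 35.7% for mOSN. As sums, receptors and targets were highest in HBC and lower at each later stage. Among their single genes only Notch1 and Hey1 kept that order beyond counting error. Notch2 and Hes1 were lowest in GBC, Hes5 was highest there, and Notch3 did not differ between HBC and GBC. The ligand Jag2 stayed above 19 FPKM in every library.

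**Figure D1:**
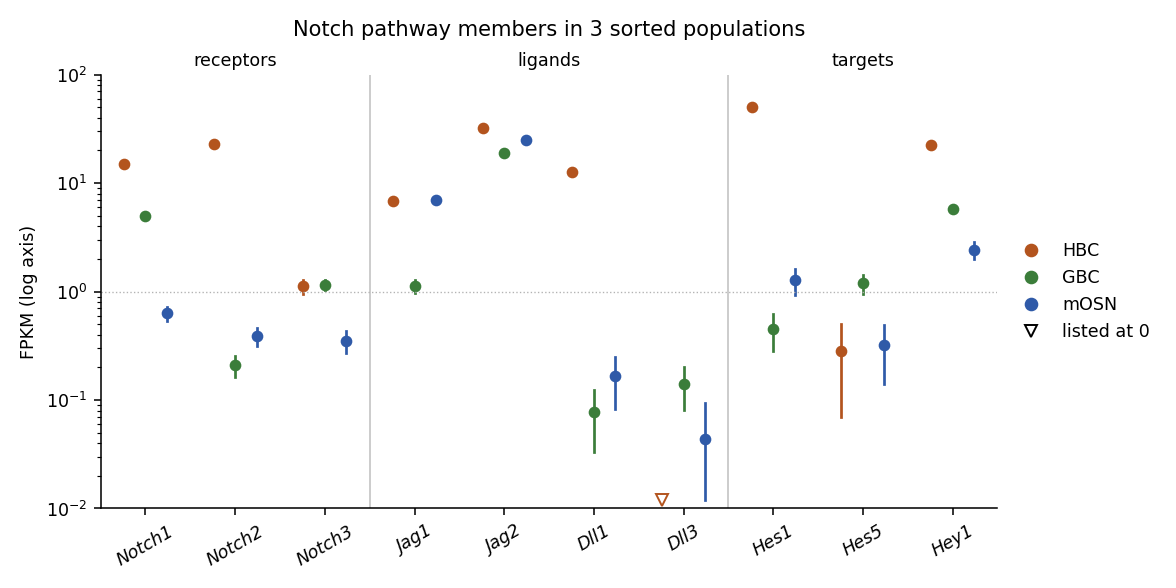
FPKM (log axis) of the 10 members in HBC, GBC and mOSN, 1 library each, with vertical lines for the deposited intervals; the lower end of the Dll3 line in mOSN is 0 and is drawn at the axis bottom, and the open triangle marks Dll3 listed at 0 in HBC. Notch2, Dll1 and Hes1 lie above 12 FPKM in HBC and below 2 FPKM in GBC and mOSN, whereas the 3 values of Jag2 lie between 19.1 and 32.0 FPKM.

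The receptors were described first. Notch1 (chromosome 2, 26313422 to 26359342, mm9) had 14.9 FPKM in HBC (interval 14.4 to 15.4), 4.93 in GBC (4.72 to 5.14) and 0.629 in mOSN (0.530 to 0.727). It was thus highest in HBC, lower in GBC and lowest in mOSN, with no overlap of intervals. Its log2 ratio, computed throughout as log2((FPKM + 1)/(FPKM + 1)), was -1.43 for GBC over HBC, -1.86 for mOSN over GBC and -3.29 for mOSN over HBC. The ratio for GBC over HBC moved with the scaling, to -0.72 with 1 conversion factor per gene and, still uncalled, to just short of the 4-fold threshold with median-of-ratios scaling.

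Notch2 (chromosome 3, 97817461 to 97954290) had 23.1 FPKM in HBC (interval 22.6 to 23.6), 0.210 in GBC (0.164 to 0.256) and 0.388 in mOSN (0.313 to 0.464). It was high in HBC and under 1 FPKM in the other two libraries, and it rested on 7649 fragments in HBC, 83 fragments in GBC and 106 fragments in mOSN, as implied by the deposited intervals. Its log2 ratio was -4.31 for GBC over HBC, 0.20 for mOSN over GBC and -4.12 for mOSN over HBC. Without the pseudocount it was 110.0-fold lower in GBC than in HBC. In rank among all genes, Notch2 stood at 1336 for HBC, 14376 for GBC and 12875 for mOSN.

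Notch3 (chromosome 17, 32257838 to 32303797) was low throughout, with 1.12 FPKM in HBC (interval 0.958 to 1.28), 1.16 in GBC (1.04 to 1.27) and 0.351 in mOSN (0.272 to 0.431). The HBC and GBC intervals overlapped, so these neighbours did not differ beyond counting error, and mOSN lay below both. Its log2 ratio for GBC over HBC was 0.03 as deposited, and median-of-ratios scaling put it at -0.32, so the sign depends on the scaling.

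The 3 receptors summed to 39.1 FPKM in HBC, 6.29 FPKM in GBC and 1.37 FPKM in mOSN, and their makeup differed between libraries. Notch2 made up 3.33% of the receptor sum in GBC and 59.0% in HBC, while Notch1 made up 78.3% in GBC and 38.2% in HBC. Notch3 accounted for 2.86% for HBC, 18.4% for GBC and 25.7% for mOSN. The fragments behind 1 FPKM of the same gene differ between the libraries. When fragments of a gene were therefore converted to FPKM by 1 factor shared by the 3 libraries, Notch2 stood at 2.79% in GBC and 63.9% in HBC, and Notch1 at 77.8% in GBC and 33.9% in HBC.

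**Figure D2:**
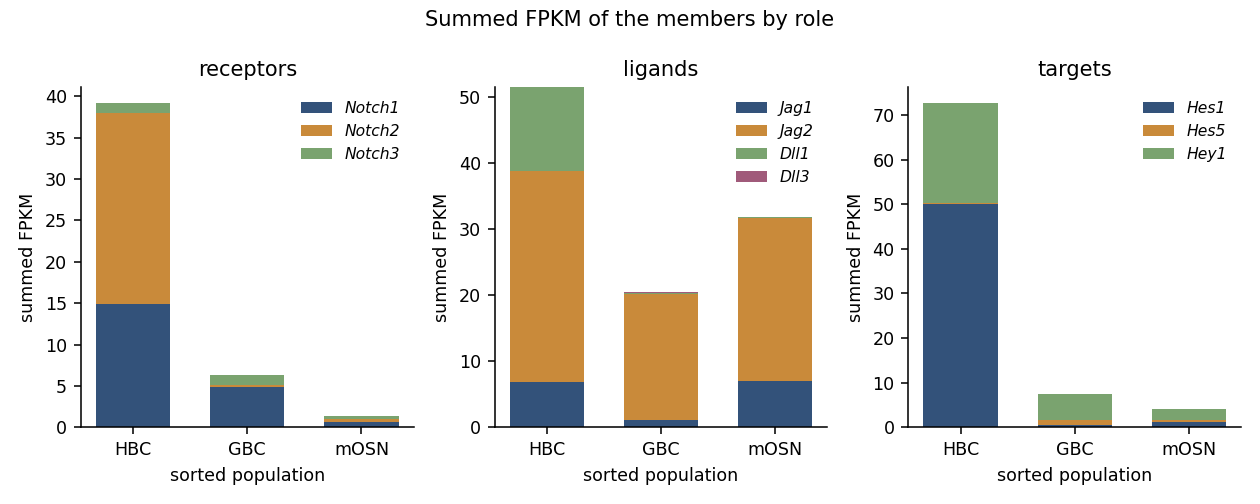
Summed FPKM (linear axes from 0) of the receptors, ligands and targets in HBC, GBC and mOSN, stacked by gene, 1 library each. Receptors sum to 39.1, 6.29 and 1.37 FPKM and targets to 72.6, 7.37 and 4.02 FPKM in HBC, GBC and mOSN, while the ligand sum is 51.5, 20.4 and 31.9 FPKM and mostly Jag2.

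Among the ligands, Jag2 (chromosome 12, 114146801 to 114167706), which activates Notch receptors on neighbouring cells, had 32.0 FPKM in HBC (interval 30.8 to 33.2), 19.1 in GBC (18.6 to 19.7) and 24.7 in mOSN (23.8 to 25.6). The values differed beyond counting error but, as deposited, by 1.67-fold at most, between GBC and HBC. The order did not hold under every scaling. Jag2 rested on 2882 fragments in HBC, 4837 fragments in GBC and 3047 fragments in mOSN, and 1 FPKM of it corresponded to 253 fragments in GBC and 90.1 in HBC. With 1 conversion factor per gene it stood at 19.8 for HBC, 33.3 for GBC and 22.9 for mOSN, and its log2 ratio for GBC over HBC was 0.72, against -0.71 as deposited. With median-of-ratios scaling it stood at 44.5 for HBC, 17.2 for GBC and 19.7 for mOSN.

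Jag1 (chromosome 2, 136907194 to 136942067), the other Jagged ligand, had 6.90 FPKM in HBC (interval 6.56 to 7.25), 1.13 in GBC (0.971 to 1.28) and 6.95 in mOSN (6.48 to 7.42). HBC and mOSN overlapped and GBC lay below both. The log2 ratio was -1.89 for GBC over HBC and 1.90 for mOSN over GBC. With 1 conversion factor per gene Jag1 stood at 8.66 for HBC, 1.17 for GBC and 5.34 for mOSN, so that GBC remained the lowest and HBC became the highest.

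The Delta-like ligands were low outside HBC. Dll1 (chromosome 17, 15504318 to 15512787), an activating Delta ligand, had 12.6 FPKM in HBC (interval 11.9 to 13.3), 0.0783 in GBC (0.0331 to 0.123) and 0.167 in mOSN (0.0835 to 0.250). The mOSN value rested on 16 implied fragments and the GBC value on 12, their intervals overlapped, and HBC lay far above both. Its log2 ratio was -3.66 for GBC over HBC and -3.54 for mOSN over HBC. Dll3 (chromosome 7, 29078574 to 29086804), a divergent Delta protein that does not activate Notch on neighbouring cells, was listed at 0 in HBC and had 0.141 FPKM in GBC (interval 0.0807 to 0.201) and 0.0434 in mOSN (0 to 0.0935). It rested on 3 implied fragments in mOSN and 22 in GBC, with overlapping intervals, and no ratio against HBC was computed.

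The ligand sum was 51.5 FPKM in HBC, 20.4 FPKM in GBC and 31.9 FPKM in mOSN. Its share of Jag2 was 62.1% for HBC, 93.4% for GBC and 77.5% for mOSN, and Dll1 made up under 1% in mOSN and GBC and 24.5% in HBC. With 1 conversion factor per gene the ligand sums were 39.4 for HBC, 34.7 for GBC and 28.5 for mOSN, which turns the order of GBC and mOSN round.

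Among the targets, Hes1 (chromosome 16, 30065443 to 30067882), a repressor of proneural genes, had 50.1 FPKM in HBC (interval 48.0 to 52.2), 0.451 in GBC (0.284 to 0.619) and 1.27 in mOSN (0.925 to 1.62). It was the highest member in HBC, at rank 494 of all genes, and it rested on 54 implied fragments in mOSN and 29 in GBC. Its log2 ratio was -5.14 for GBC over HBC, 0.65 for mOSN over GBC and -4.49 for mOSN over HBC. GBC was the lowest of the 3 libraries and its interval did not overlap that of mOSN.

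Hey1 (chromosome 3, 8663359 to 8667038), a repressor related to Hes proteins, had 22.2 FPKM in HBC (interval 21.2 to 23.2), 5.73 in GBC (5.24 to 6.22) and 2.43 in mOSN (2.01 to 2.84). Like Notch1 it was highest in HBC and lowest in mOSN, with no overlap. Its log2 ratio was -1.79 for GBC over HBC, -0.97 for mOSN over GBC and -2.76 for mOSN over HBC. In GBC, Hey1 made up 77.8% of the target sum and Hes1 6.12%, and in HBC Hes1 made up 69.0% and Hey1 30.6%.

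Hes5 (chromosome 4, 154335032 to 154336480), the target whose promoter window is printed above, was low in every library and ran in another order. It had 0.285 FPKM in HBC (interval 0.0697 to 0.501), 1.19 in GBC (0.951 to 1.43) and 0.319 in mOSN (0.142 to 0.495). GBC was above both other libraries, whose intervals overlapped. It rested on 7 fragments in HBC, 100 fragments in GBC and 13 fragments in mOSN. Its log2 ratio was 0.77 for GBC over HBC and -0.73 for mOSN over GBC. With 1 conversion factor per gene those ratios were 1.48 and -1.29.

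The comparisons were then read against all genes. A call required a log2 ratio of 2 or more in size, which is a 4-fold difference, and 5 FPKM or more on the higher side. Between GBC and HBC, 3 of the 10 members were called, Notch2, Dll1 and Hes1, all higher in HBC. Dll1 lost its call at a pseudocount of 5 FPKM and at a floor of 20 FPKM, and Jag1 and Hey1 were called higher in HBC with median-of-ratios scaling. Jag1 was also called higher in HBC at a pseudocount of 0.1 FPKM (-2.51) and with 1 conversion factor per gene (-2.15). For comparison, 15.5% of the 9101 genes reaching 5 FPKM in either library were called higher in GBC and 16.5% higher in HBC. Of the 10 members, 7 reached that level, each of them in HBC. The median log2 ratio of the 9 members above 0 in both libraries, low ones included, was -1.79. That of the tested genes, all reaching 5 FPKM, was 0.51, so these medians cover unlike sets.

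Between mOSN and GBC, the pair made with the same kit, no member was called in either direction, and 3 of the 10 reached 5 FPKM. Among the 8678 genes tested, 7.12% were called higher in mOSN and 3.16% higher in GBC. Jag1 came nearest from the mOSN side (log2 ratio 1.90) and Notch1 from the GBC side (-1.86). The median over the 10 members, low ones included, was -0.01, and over the tested genes, all reaching 5 FPKM, it was 0.29. The 3 members at that level were Jag1 (1.90), Jag2 (0.36) and Hey1 (-0.97), so these medians cover unlike sets. Notch1 was called higher in GBC with 1 conversion factor per gene, at -2.32, and Jag1 was called higher in mOSN at a pseudocount of 0.1 FPKM.

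Between mOSN and HBC, 5 of the 10 members were called, all higher in HBC: Notch1, Notch2, Dll1, Hes1 and Hey1. Among the 9779 genes tested, 24.0% were called higher in mOSN and 15.8% higher in HBC. The median log2 ratio of the 9 members above 0 in both libraries, low ones included, was -2.76. Over the tested genes, all reaching 5 FPKM, it was 0.79, and 7 of the 10 members reached that level. This comparison shares its libraries with the other two, so its calls are no separate evidence. Of all called genes, 48.4% were higher in GBC for GBC against HBC, 69.3% in mOSN for mOSN against GBC and 60.3% in mOSN for mOSN against HBC. With median-of-ratios scaling those shares were 31.4%, 60.2% and 40.9%, and with 1 conversion factor per gene 47.1%, 53.1% and 48.3%.

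**Figure D3:**
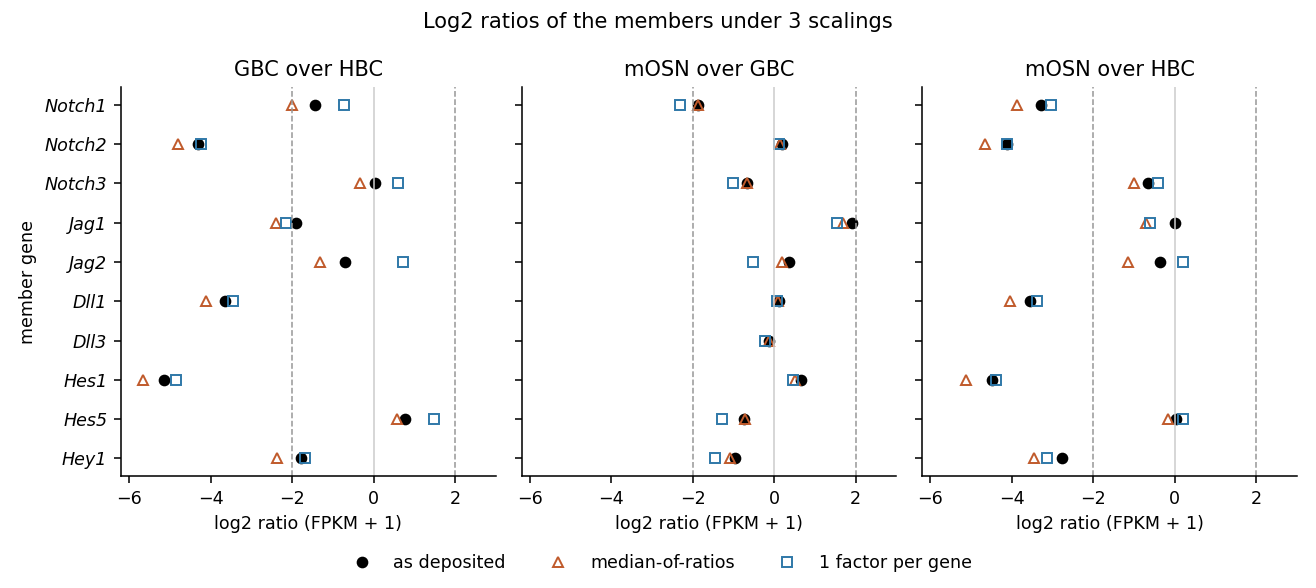
Log2 ratios of the 10 members in the 3 comparisons, as deposited (filled circles), with median-of-ratios scaling (triangles) and with 1 conversion factor per gene (squares); dashed lines mark a 4-fold difference, and Dll3 has no ratio against HBC. Notch2, Dll1 and Hes1 lie beyond the line on the HBC side under all 3 scalings in both comparisons with HBC, whereas Jag2 changes side of 0 in all 3 comparisons with 1 conversion factor per gene.

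The HBC library also held transcripts of other cell types, and the Notch values there stand beside them. The 7 horizontal basal cell markers were each highest in HBC and summed to 1367 FPKM there, 1.84 in GBC and 3.34 in mOSN. Among them Icam1 (136 FPKM in HBC) encodes CD54, the antigen used for sorting, and is thus not independent of the sort. In the same library the 7 macrophage markers summed to 3283 FPKM, against 4.06 in GBC and 2.92 in mOSN. The 7 sustentacular (supporting cell) markers summed to 1796 FPKM in HBC, 39.0 FPKM in GBC and 146 FPKM in mOSN. Their HBC sum rested mostly on Cbr2 (881 FPKM), Cyp2f2 (748) and Ugt2a1 (135). Cyp2g1 and Cyp1a2 went the other way, with 46.1 and 5.14 FPKM in mOSN and 11.1 and 1.99 in HBC. The 5 Bowman gland markers summed to 360.3, 15.3 and 9.82 FPKM. All 7 macrophage, all 7 sustentacular and 4 of the 5 gland markers reached 1 FPKM in HBC. All 7 sustentacular markers reached it in mOSN too. The 7 immediate early genes, which respond within minutes to cell stress, summed to 3432 FPKM in HBC, 302 FPKM in GBC and 407 FPKM in mOSN. Vascular and glial markers were lower, with 13.3 FPKM in HBC for the 7 endothelial, 11.8 for the 5 pericyte and smooth muscle and 6.37 for the 5 ensheathing glia markers. The 6 fibroblast markers summed to 142 FPKM in HBC and the 6 lymphocyte markers to 79.3. Neuronal transcripts were present too. The 5 mature sensory neuron markers summed to 101 FPKM in HBC, 719 FPKM in GBC and 3858 FPKM in mOSN, with Omp alone at 71.6 FPKM in HBC. Omp, the gene of the mOSN sorting reporter, had 1487 FPKM in mOSN. The 4 immature neuron markers summed to 15.4 FPKM in HBC, 1272 FPKM in GBC and 139 FPKM in mOSN, so the GBC library held immature and mature neuron transcripts beside the 408 FPKM of its 5 precursor markers. That precursor sum rested mostly on Nhlh1 (188 FPKM), Neurog1 (163, the gene of the sorting reporter) and Neurod1 (55.0). Kit of the same list went the other way, with 5.30 FPKM in HBC and 1.15 in GBC. No marker on these lists was listed at 0 in HBC, and the part of these cells in the HBC levels of Notch1, Notch2, Jag1, Jag2, Dll1, Hes1 and Hey1 was not tested, nor was that of neurons in the GBC levels. In bulk libraries, fewer cells of a type and less RNA per cell cannot be told apart.

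**Figure D4:**
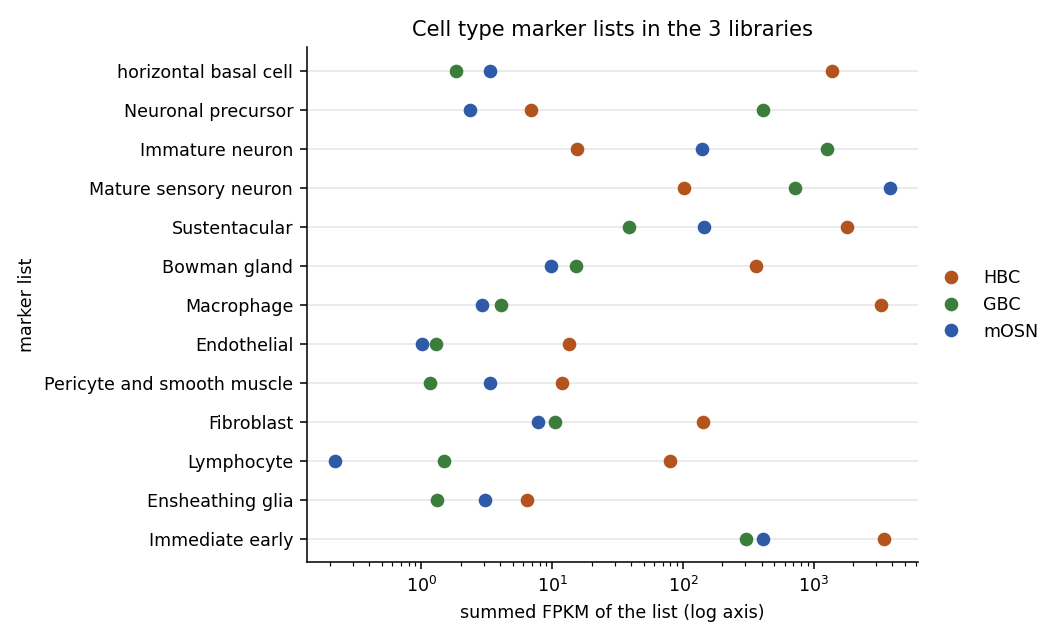
Summed FPKM (log axis) of 13 lists of cell type and stress markers in HBC, GBC and mOSN, 1 library each. The HBC library is highest for the horizontal basal cell list (1367 FPKM) and also for macrophage (3283), sustentacular (1796) and immediate early genes (3432). The neuronal precursor sum is highest in GBC (408) and the mature sensory neuron sum in mOSN (3858). Single markers can differ from their sum, as Kit of the precursor list is highest in HBC and Cyp2g1 of the sustentacular list in mOSN.

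Of 64 other pathway genes in 7 lists, all were found. Between GBC and HBC, 10 were called higher in GBC and 3 higher in HBC, with 43 reaching 5 FPKM in either. Between mOSN and GBC, 2 were called higher in mOSN and 5 higher in GBC, with 39 at that level. Between mOSN and HBC, 8 of 40 were called higher in mOSN and 3 higher in HBC, and with median-of-ratios scaling the balance turned round, to 5 higher in mOSN and 7 higher in HBC. These shares stand beside the background shares of all genes given above, and they describe these libraries only.

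Among the other receptors and ligands, Notch4 and Dll4, known from the endothelium, were under 1 FPKM in all 3 libraries. Dlk2, a Delta-like homologue without the receptor-activating domain, had 21.1 FPKM in HBC, 0.102 FPKM in GBC and 0.0736 FPKM in mOSN. It therefore lay with Notch2 and Dll1, high in HBC alone. Dner, a neuronal membrane protein with EGF repeats, ran the other way, with 0.790 FPKM in HBC, 14.4 FPKM in GBC and 55.3 FPKM in mOSN. Cntn1, a neuronal adhesion molecule reported as a Notch ligand, had 0.114 FPKM in HBC, 5.57 FPKM in GBC and 2.88 FPKM in mOSN. Of these 6 genes, 2 were called higher in GBC and 1 higher in HBC between GBC and HBC, and none between mOSN and GBC. The Cntn1 call ends with 1 conversion factor per gene, where its GBC level is 4.43.

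The fringe glycosyltransferases extend sugars on Notch receptors and so alter their response to Delta and Jagged ligands, and each had another order over the libraries. Lfng had 25.0 FPKM in HBC, 2.33 FPKM in GBC and 0.135 FPKM in mOSN. Mfng had 3.46 FPKM in HBC, 33.1 FPKM in GBC and 0.182 FPKM in mOSN. Rfng had 4.32 FPKM in HBC, 15.9 FPKM in GBC and 12.2 FPKM in mOSN. Lfng was thus the highest fringe gene in HBC, Mfng in GBC and Rfng in mOSN. The log2 ratio of Mfng was 2.93 for GBC over HBC and -4.85 for mOSN over GBC, and both stood past 2 with 1 conversion factor per gene (3.63 and -5.27). The ratio of Lfng for GBC over HBC was -2.97, and -1.98 with 1 conversion factor per gene, which is just short of a call.

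The ubiquitin ligases that drive ligand endocytosis differed from each other. Mib1 had 19.2 FPKM in HBC, 4.56 FPKM in GBC and 22.3 FPKM in mOSN, the same order of levels as Jag1. Its log2 ratio for mOSN over GBC was 2.06, a call that ends at 1.02 with 1 conversion factor per gene. Neurl1a had 1.93 FPKM in HBC, 16.1 FPKM in GBC and 17.3 FPKM in mOSN. In the list of 9 glycosylation and endocytosis genes, 2 were called higher in GBC and 1 higher in HBC between GBC and HBC, with a median log2 ratio of 0.96. With 1 conversion factor per gene 4 were called higher in GBC and 0 higher in HBC.

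Genes of receptor cleavage were present in all 3 libraries, with 10 of 10 genes at 1 FPKM or more in HBC, 9 genes in GBC and 10 genes in mOSN. The protease gene Adam17 had 19.5 FPKM in HBC, 3.20 FPKM in GBC and 4.13 FPKM in mOSN. The gamma-secretase genes Psen2 and Aph1b were highest in mOSN. Psen2, a catalytic subunit, had 11.5 FPKM in HBC, 37.4 FPKM in GBC and 72.8 FPKM in mOSN. Aph1b had 1.75 FPKM in HBC, 10.8 FPKM in GBC and 24.6 FPKM in mOSN, and its log2 ratio for GBC over HBC was 2.10, which ends as a call at 0.87 with 1 conversion factor per gene. The list held 1 call in each direction between GBC and HBC (median log2 ratio -0.38) and none between mOSN and GBC (0.25). With 1 conversion factor per gene it held 0 calls higher in GBC and 2 higher in HBC between GBC and HBC. Median-of-ratios scaling gave the same counts.

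**Figure D5:**
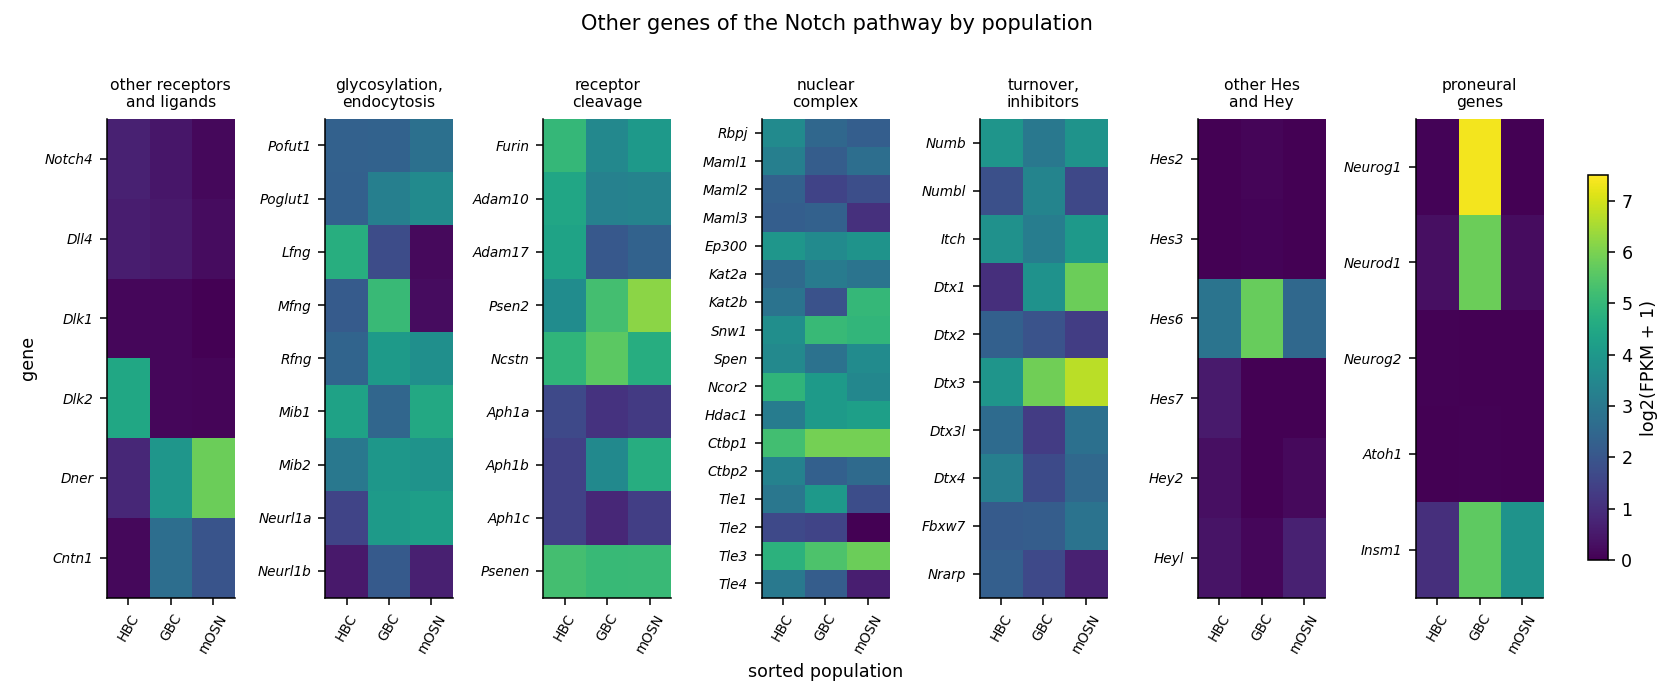
Colour scale of log2(FPKM + 1) for 62 of the 64 other pathway genes in 7 lists (panels), with HBC, GBC and mOSN as columns, 1 library each. Lfng and Dlk2 are bright in HBC, Mfng, Hes6 and the proneural genes Neurog1, Neurod1 and Insm1 in GBC, and Dner, Dtx1, Dtx3 and Psen2 in mOSN.

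In the nucleus, Rbpj had 11.0 FPKM in HBC, 4.67 FPKM in GBC and 3.70 FPKM in mOSN, with no call as deposited. With 1 conversion factor per gene Rbpj was called higher in HBC, at a log2 ratio of -2.18 for GBC over HBC and -2.47 for mOSN over HBC, and with median-of-ratios scaling it was called higher in HBC than in mOSN. Of 17 genes of the nuclear complex and its corepressors, none was called between GBC and HBC as deposited (median log2 ratio -0.35), and Rbpj alone with 1 conversion factor per gene. Between mOSN and GBC, Kat2b, an acetyltransferase, was called higher in mOSN (30.8 FPKM in mOSN and 2.69 in GBC), and Tle1, a Groucho corepressor that Hes proteins recruit, was called higher in GBC (2.41 FPKM in mOSN and 15.7 in GBC). Tle4, another Groucho gene, had 7.18 FPKM in HBC, 3.64 FPKM in GBC and 0.560 FPKM in mOSN. Among 10 genes of receptor turnover and inhibition, Dtx1, a Deltex ubiquitin ligase, had 1.02 FPKM in HBC, 13.2 FPKM in GBC and 55.4 FPKM in mOSN, and Dtx3 had 14.0, 57.8 and 105 FPKM. That list held 1 call higher in GBC between GBC and HBC (median log2 ratio -0.50) and none between mOSN and GBC (0.84). With 1 conversion factor per gene it held 3 calls higher in GBC and 1 higher in HBC between GBC and HBC, and 1 higher in GBC between mOSN and GBC. Nrarp, a feedback inhibitor that Notch itself is known to induce, had 3.85 FPKM in HBC, 2.15 FPKM in GBC and 0.615 FPKM in mOSN, and was named after its value was seen, as were Notch4, Dll4, Rfng and Rbpj.

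Of the other Hes and Hey genes only Hes6 reached 1 FPKM in any library. Hes6, which is known to antagonise Hes1 in neural precursors, had 6.37 FPKM in HBC, 53.0 FPKM in GBC and 4.84 FPKM in mOSN. Hes1 and Hes6 thus had their highest values in different libraries, Hes1 in HBC and Hes6 in GBC. The proneural genes Neurog1 (163 FPKM, the gene of the reporter used for sorting), Neurod1 (55.0) and Insm1 (48.8) were highest in the GBC library, where Hes1 was lowest. Of the 6 genes on the proneural list, 3 reached 1 FPKM in GBC. Notch2 and Jag1 were lowest in GBC too, while Hes5 was highest there (1.19 FPKM). Whether these levels are related was not tested.

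Genes with the most similar values were found by Euclidean distance of log2(FPKM + 1) over the 3 libraries, among 10340 genes with at least 5 FPKM in some library. Nearest to Hes1 were Aqp5, a water channel and Bowman gland marker, at a distance of 0.142, and Cnn2 at 0.180. Nearest to Dll1 were Egfr at 0.0486 and H2-Q8 at 0.0599, and nearest to Notch2 were Birc3 at 0.127 and Apbb1ip at 0.166. Notch1 had Dgka at 0.148 and Spint1 at 0.271, and Hey1 had Pik3cd at 0.176 and Phlda1 at 0.194. Jag2 had Ptpn1 at 0.0728 and Gapdh at 0.0976, and Jag1 had Bcap29 at 0.225 and Ccdc90a at 0.323. With 3 values per gene such likeness is weak, and H2-Q8 belongs to a family of near-identical genes, so its value is uncertain.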

How the data were processed

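The authors deposited 1 table per library with an FPKM, a status and an interval for each gene, per the file headers. Per the submitters' processing notes, Bowtie, TopHat and Cufflinks were used with mm9, and the sources used here give no version, annotation or option. Of 9 samples, the 3 of 5-hydroxymethylcytosine and the 3 of 5-methylcytosine were not analysed here. Rows of 1 symbol were added up (22345 rows, 21909 symbols), and starts were raised by 1 to count from 1. Implied fragments are the count n for which the upper bound lies 2 FPKM/sqrt(n) above the FPKM. Among rows with at most 100 implied fragments and status OK, the share within 0.03 of a whole number was 77.9% for HBC, 69.7% for GBC and 69.3% for mOSN. They summed to 18123443 for HBC, 18087564 for GBC and 16516700 for mOSN. PCR duplicates are not independent molecules, so intervals cover counting error only.

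Ratios used a pseudocount of 1 FPKM, which understates changes of low genes. The fold rule was tested on simulated data. The planted changes lay above the threshold, in genes of at least 20 FPKM with a conversion factor shared by both libraries. The simulation therefore checks the calculation only and not the calls made here. Members, lists, alternatives and naming rules were chosen with earlier results of these data known. All 10 members are named; from each list, up to 4 called genes with the largest ratio; for likeness, the 2 nearest genes. The calculations used Python 3.11.15, pandas 2.3.3, numpy 2.4.6 and matplotlib 3.10.9. Alternatives were pseudocounts of 0.1 and 5 FPKM, no filter or a filter at 20 FPKM, 3 other scalings, a demand for separate intervals, and leaving out FAIL and LOWDATA rows, which no member carried. One marker, Bpifa1, was matched through its synonym Plunc. The values of 2 list genes are not reported here.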

Additional observations from a re-analysis of the deposited data

How the results depend on the processing

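Each population had 1 library, so no alternative could leave out a replicate, and small differences cannot be separated from variation between animals or sorts. No paired analysis was possible because each population has 1 library and no test was made. Between GBC and HBC, 3 members were called as deposited, against 5 under median-of-ratios scaling or with libraries rescaled to a common sum (TPM scale, which also lowers the weight of the pseudocount), Jag1 and Hey1 being added. At a pseudocount of 0.1 FPKM and with 1 conversion factor per gene the count was 4, with Jag1 added. At a pseudocount of 5 FPKM and at a floor of 20 FPKM it was 2 (Notch2 and Hes1), without Dll1. Over all genes, 1503 of 9101 tested were called higher in HBC as deposited. The figure was 2054 of 9475 with median-of-ratios scaling, 2753 of 14004 with a common sum and 1852 of 9675 with 1 conversion factor per gene. At a pseudocount of 0.1 FPKM 1676 genes were called higher in HBC, at 5 FPKM 643 and at the floor of 20 FPKM 638. Between mOSN and GBC, no member was called as deposited. In that comparison 1 was called at a pseudocount of 0.1 FPKM (Jag1), 1 with 1 conversion factor per gene (Notch1) and 2 with a common sum (Notch1 and Jag1). Calls over all genes, higher in mOSN and higher in GBC, were 618 and 274 as deposited and 882 and 363 at that pseudocount. With 1 conversion factor per gene they were 590 and 522, and with a common sum 805 and 957. Between mOSN and HBC, 5 were called as deposited, 2 at a pseudocount of 5 FPKM (Notch2 and Hes1) and 3 at a floor of 20 FPKM (Notch2, Hes1 and Hey1). Over all genes, 1549, 645 and 632 were called higher in HBC under those settings. The causes of these shifts were not tested, beyond what the settings themselves change. As deposited 6 members were highest in HBC, and 8 with median-of-ratios or common-sum scaling. Of 168 recomputed member ratios, 106 moved by more than the counting error of the deposited intervals and 62 did not. The 62 include every ratio recomputed without FAIL and LOWDATA rows, which could not move because no member carried such a row. Among ratios called as deposited, 0 changed sign. A change of sign occurred in 11 ratios that were not called as deposited, all of Notch3, Jag1 (mOSN over HBC), Jag2 and Hes5. Only the 3 other scalings could change a sign. A new pseudocount cannot, and no member carried a FAIL or LOWDATA row.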

Other observations

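The promoter windows of the members were also searched on both strands for words bound by Hes and Hey repressors. CACGNG was found in 6 of the 9 windows, those of Dll1, Jag1, Jag2, Notch2 and Notch3, and in 27.5% of all 32851 windows. CACNAG was found in 4 of the 9 windows (Dll1, Notch1, Notch2 and Notch3) and in 42.5% of all windows. The 2 words overlap in CACGAG, and a window with that word counts for both. CACGTG was found in none of the 9 windows and in 7.15% of all windows. The window of Hes5 held neither CACGNG nor CACNAG. These matches describe letters and were related to no level.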
